A study of Mus musculus with 9 samples.

Results

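The 10 genes described here encode transcription factors of the Schwann cell lineage and of the repair state that Schwann cells enter after nerve injury: Sox10, Sox2, Egr2, Pou3f1, Pou3f2, Jun, Tfap2a, Foxd3, Id2 and Pax3. They were chosen by name, and every probe set on the array that was annotated to 1 of them alone was used. All 10 were measured, by 23 probe sets, among 18193 genes on the array. Their levels were compared between 3 samples of neurospheres, 3 of cultured auditory nerve cells and 3 of auditory nerve tissue, all from CBA/CaJ mice of both sexes at 8 to 12 weeks of age. The neurospheres, which are floating clusters of dividing cells, came from confluent nerve cultures kept for a further 12 days in serum-free medium with EGF (20 ng/ml), FGF (10 ng/ml) and heparin (2 µg/ml). The cultured cells came from trypsin-dissociated nerve grown on coated plates in medium with 10% serum until confluent, in 5 to 7 days. The tissue was dissected nerve with no treatment. The labels name no transgene and no step that selected Schwann cells by a marker.

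Schwann cells are the glia of peripheral nerve, and in the auditory nerve they wrap the fibres of the spiral ganglion neurons. Sox10 is needed in the lineage from the neural crest onward. Together with the POU factors Pou3f1 (Oct6) and Pou3f2 (Brn2) it switches on Egr2 (Krox20), which drives the myelin genes. Sox2, Jun, Id2 and Pax3 act against this programme and mark the immature cell, and after nerve injury Jun directs the conversion of myelinating cells to repair cells. Tfap2a, Foxd3 and Pax3 belong to the neural crest and to early Schwann cell precursors. Sox10 is shared with oligodendrocytes and melanocytes, and Sox2 with astrocytes and the supporting cells of the cochlea.

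Promoter sequences are shown for 3 genes, Egr2 because it did not pass in neurospheres against tissue by either of its probe sets, Jun because its probe sets gave different answers there, and Sox2 because its signal was far below that of tissue. RefSeq windows of 300 bases (250 before and 50 after a start site, build GRCm38.p6) were at hand for 7 of the 10 genes. The Egr2 window, 1 of 5 for that gene, lies on the plus strand at chr10:67537619-67537918, and its capitals mark a serum response element (bases -72 to -63 from the start site) and the core GACGTCA of a cyclic AMP response element (-57 to -51). The Jun window lies on the minus strand at chr4:95052173-95052472, and its capitals mark the AP-1 site variant TGACATCA (-45 to -38), through which JUN protein is known, from human cells, to act on its own gene. The Sox2 window lies on the plus strand at chr3:34649745-34650044, and its capitals mark the SOX site ACAAAG (-206 to -201).
Egr2: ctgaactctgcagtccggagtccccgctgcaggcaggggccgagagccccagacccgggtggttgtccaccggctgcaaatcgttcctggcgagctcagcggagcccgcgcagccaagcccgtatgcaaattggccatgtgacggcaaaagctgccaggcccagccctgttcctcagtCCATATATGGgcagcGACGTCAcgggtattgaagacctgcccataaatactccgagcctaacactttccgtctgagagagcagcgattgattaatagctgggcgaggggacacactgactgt
Jun: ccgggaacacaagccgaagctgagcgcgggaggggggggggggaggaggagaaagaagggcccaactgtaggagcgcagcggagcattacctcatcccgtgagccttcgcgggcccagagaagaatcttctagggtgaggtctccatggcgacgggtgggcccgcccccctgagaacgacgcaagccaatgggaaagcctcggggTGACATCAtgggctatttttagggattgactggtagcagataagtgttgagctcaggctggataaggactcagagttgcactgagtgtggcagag
Sox2: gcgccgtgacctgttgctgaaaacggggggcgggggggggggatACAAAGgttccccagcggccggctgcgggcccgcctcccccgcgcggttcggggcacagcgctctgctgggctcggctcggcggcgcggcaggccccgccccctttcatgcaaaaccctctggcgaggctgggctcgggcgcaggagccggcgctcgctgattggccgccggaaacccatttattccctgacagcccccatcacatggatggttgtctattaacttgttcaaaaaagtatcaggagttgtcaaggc
Both strands were searched in 32544 such windows, in which TGACATCA occurred in 3.37%, GACGTCA in 3.22% (hits within the longer TGACGTCA, found in 1.80%, are counted in both), ACAAAG in 18.7% and the serum response element in 1.64%. The consensus AP-1 site TGACTCA, in 5.19% of all windows, was in none of the windows of these 7 genes. A match describes letters in the window and not a bound site.

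Signals are deposited log2 values, so a difference of 1 is a change of 2-fold. Where several probe sets named a gene, the one with the greatest average signal stands for it, and levels are compared between samples and not between probe sets. A gene was said to rise or fall where the adjusted p of limma was under 0.05 and the change was over 1.5-fold. As a floor, the 95th percentile of 83 probe sets for olfactory, vomeronasal and taste receptors was 5.28 to 5.66 on the 9 arrays. The probe sets used for 9 of the 10 factors were above this floor on all 3 neurosphere arrays, 7 on all cultured cell arrays and 9 on all tissue arrays. Where a group was not above the floor, the size of a difference from it is limited by background. Whether the 3 samples in each group were separate animals or separate cultures is not given by the labels, and the p-values therefore reflect only how far these samples spread, which may be technical in part. Xist, the RNA of the inactive X chromosome, ranged over 5.85 to 12.80 on the neurosphere arrays, 12.69 to 12.80 on the cultured cell arrays and 6.25 to 12.04 on the tissue arrays, so the neurosphere samples, and the tissue samples, were not all alike in the sex of their cells. In RNA from a whole sample, fewer cells of a type and less RNA per cell cannot be told apart. For actin, the 3′ control probe set exceeded the 5′ control probe set by 0.70 ± 0.15 in neurospheres, 0.36 ± 0.037 in cultured cells and 2.71 ± 0.35 in tissue (SD, n = 3 each), so the tissue RNA gave more 3′-weighted signal. Its part in the results was not tested.

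Of the 10 factors, the same 5 fell in both cultures. In neurospheres, 5 of the 10 factors fell relative to tissue (Sox10, Sox2, Pou3f1, Pou3f2 and Pax3), none rose and 5 did not pass. Of all genes, 21.0% fell and 21.7% rose in this comparison. In cultured cells the counts were 5 fallen, 0 risen and 5 not passing, with the same 5 names among the fallen, while 22.0% of all genes fell and 20.4% rose. Both comparisons share the tissue samples. Between neurospheres and cultured cells, Jun and Id2 rose in neurospheres, none fell and 8 did not pass, where 9.0% of all genes rose and 8.91% fell. The median difference over the 10 factors was -0.43 in neurospheres and -0.62 in cultured cells, each relative to tissue, and 0.32 between the cultures (neurospheres minus cultured cells). Over all genes these medians were 0.05, -0.01 and 0.05.

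**Figure D1:**
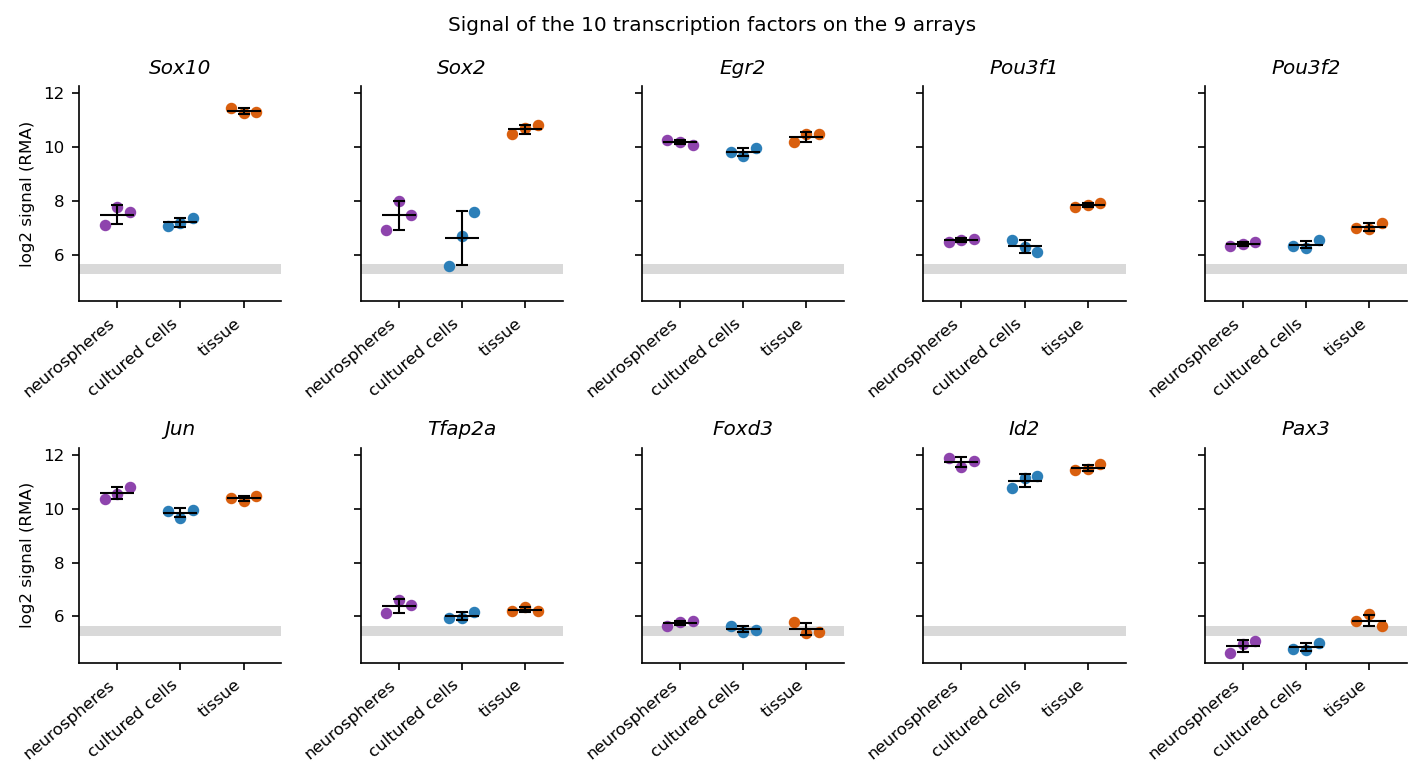
Log2 signal (RMA, vertical axis) of the probe set used for each of the 10 factors on the 3 neurosphere, 3 cultured cell and 3 tissue arrays (points, arrays 1 to 3 from left to right), with the mean and SD of each group and the range of the floor over the 9 arrays as a grey band. Sox10 and Sox2 lie far lower on all 6 culture arrays than on the tissue arrays, the groups of Egr2, Jun and Id2 lie within 1 log2 unit of each other by their means, and Pax3 lies under the band in both cultures.

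Sox10, required for Schwann cell identity, had log2 signals of 7.11, 7.78 and 7.60 on the neurosphere arrays (1, 2 and 3). The cultured cell arrays read 7.06, 7.20 and 7.39. The tissue arrays read 11.47, 11.27 and 11.30. Every culture array lay far below every tissue array, and all 6 were still above the floor. Sox10 was 14.4-fold lower in neurospheres than in tissue (difference -3.85, SE 0.16, adjusted p = 1.21e-07). It was 17.5-fold lower in cultured cells than in tissue (-4.13, SE 0.11, adjusted p = 1.09e-09). Between neurospheres and cultured cells the difference was 0.28, with an interval of -0.11 to 0.68 and overlapping arrays (adjusted p = 0.252). Only 2.44% of all genes had a lower difference between neurospheres and tissue, and 1.90% between cultured cells and tissue. A further probe set, 1424985_a_at, fell by 1.67 in neurospheres and fell by 1.99 in cultured cells. The last, 1425369_a_at, was near the floor in all groups (5.54 ± 0.10, 5.35 ± 0.23 and 5.72 ± 0.058 in neurospheres, cultured cells and tissue) and did not pass in either comparison.

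Pou3f1, which acts in the promyelinating Schwann cell just before Egr2, was at 6.49, 6.57 and 6.61 on the neurosphere arrays by probe set 1422068_at. It was at 6.57, 6.28 and 6.10 on the cultured cell arrays and at 7.77, 7.85 and 7.92 on the tissue arrays. The cultures overlapped with each other and lay below all tissue arrays, with a difference of -1.29 (SE 0.09, adjusted p = 1.97e-06) for neurospheres and -1.53 (SE 0.12, adjusted p = 2.29e-06) for cultured cells. The size of this fall depended on the probe set. With 1460038_at the levels were 5.49 ± 0.79 in neurospheres, 4.62 ± 0.33 in cultured cells and 9.83 ± 0.14 in tissue, differences from tissue of -4.34 and -5.21. On that probe set all cultured cell arrays and 1 of the 3 neurosphere arrays were under the floor.

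Pou3f2, which acts alongside Pou3f1, was at 6.33, 6.42 and 6.48 on the neurosphere arrays, 6.35, 6.27 and 6.54 on the cultured cell arrays and 6.99, 6.95 and 7.21 on the tissue arrays. It differed by -0.64 (SE 0.10, adjusted p = 0.000462) in neurospheres and by -0.66 (SE 0.11, adjusted p = 0.000383) in cultured cells, falls near the 1.5-fold threshold. Without tissue replicate 3 the differences were -0.56 and -0.58, under the threshold. With quantile normalization they were -0.39 and -0.35, under it as well. By probe set 1453478_at the differences were larger, -2.35 and -2.33, with both cultures under the floor (3.73 ± 0.097 in neurospheres and 3.75 ± 0.096 in cultured cells, against 6.08 ± 0.30 in tissue). The third probe set stayed under the floor in all groups.

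Egr2, the driver of myelin gene expression, was at 10.26, 10.20 and 10.10 on the neurosphere arrays. It was at 9.81, 9.67 and 9.98 on the cultured cell arrays and at 10.18, 10.51 and 10.51 on the tissue arrays. The neurosphere arrays overlapped with the tissue arrays, and the cultured cell arrays lay below both. Against tissue, neurospheres differed by -0.21 with an interval of -0.47 to 0.04 (adjusted p = 0.130). A fall of 1.5-fold therefore lay outside the interval. Sox10, with which Egr2 acts, differed by -3.85 by 1451689_a_at and by -1.67 by 1424985_a_at. These are signals of whole samples, and which cells gave that of Egr2 was not tested. Cultured cells differed from tissue by -0.58 (SE 0.12, adjusted p = 0.00188), a 1.49-fold difference just under the threshold. It passed without tissue replicate 1 (-0.69) and without cultured cell replicate 3 (-0.66). The other probe set for Egr2, 1427682_a_at, gave -0.12 for neurospheres (interval -0.52 to 0.28) and -0.70 for cultured cells, and the difference for cultured cells passed. Neurospheres were higher than cultured cells by 0.36 (SE 0.10, adjusted p = 0.0236), under the fold threshold.

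**Figure D2:**
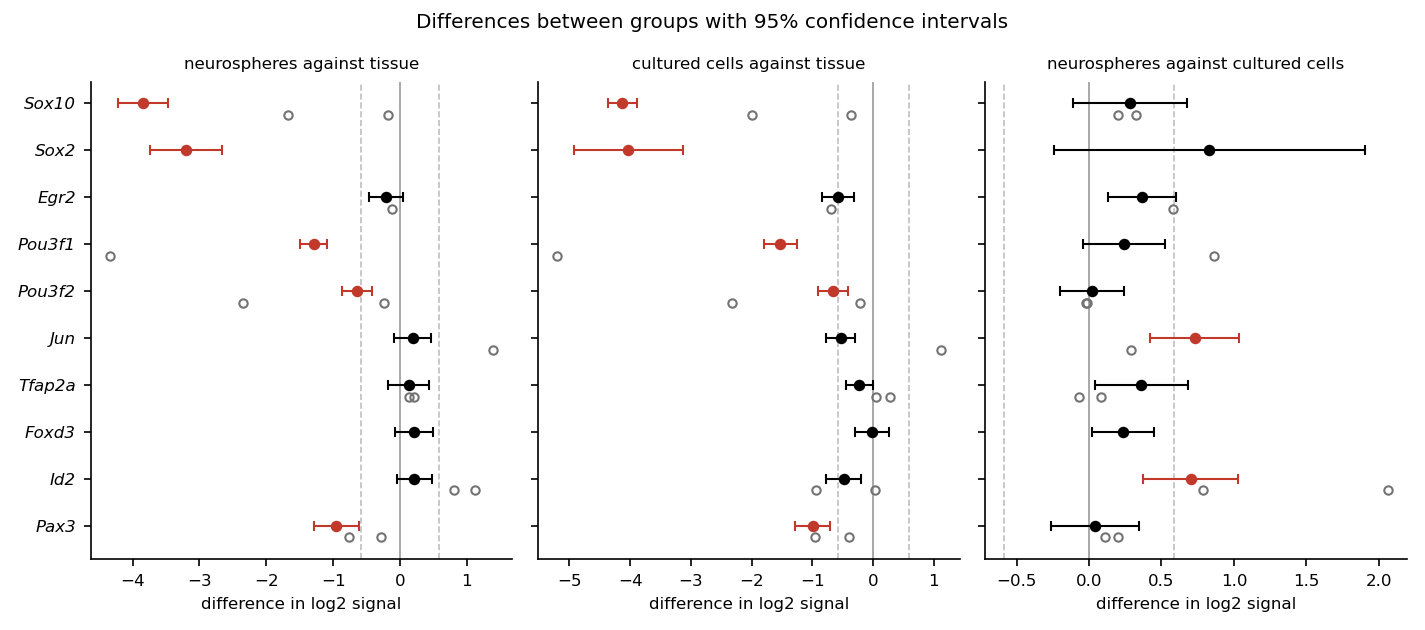
Difference in log2 signal (horizontal axis) for each of the 10 factors, in panels for neurospheres minus tissue, cultured cells minus tissue and neurospheres minus cultured cells, with 95% confidence intervals of limma (filled points, red where the gene passed) and the other probe sets of the gene (open circles). Dashed lines mark 1.5-fold in either direction. In the first panel the open circles of Pou3f1 (-4.34) and Jun (1.40) lie well away from their filled points (-1.29 and 0.19).

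Sox2, which holds Schwann cells in the immature state and is used as a marker of neural progenitors, had 1 probe set. It was at 6.93, 8.00 and 7.47 on the neurosphere arrays. It was at 5.60, 6.71 and 7.61 on the cultured cell arrays, array 1 being under the floor of 5.66. It was at 10.48, 10.72 and 10.82 on the tissue arrays. Sox2 varied more between cultured cell samples than any other of the 10 factors (range 5.60 to 7.61), and all 6 culture arrays were nevertheless below all 3 tissue arrays. It was 9.21-fold lower in neurospheres (difference -3.20, SE 0.24, adjusted p = 3.83e-06) and 16.3-fold lower in cultured cells (-4.03, SE 0.40, adjusted p = 1.15e-05). Neurospheres exceeded cultured cells by 0.83 with an interval of -0.24 to 1.90 (adjusted p = 0.215). Without cultured cell replicate 3, the highest of its group, that difference was 1.31 and passed (adjusted p = 0.0465).

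Jun, whose protein directs the repair state, was measured by 2 probe sets that disagreed in tissue. By 1448694_at it was at 10.37, 10.56 and 10.80 on the neurosphere arrays, 9.94, 9.65 and 9.96 on the cultured cell arrays and 10.38, 10.31 and 10.47 on the tissue arrays. Neurospheres lay above cultured cells on every array and overlapped with tissue. By 1417409_at it was at 10.00, 10.06 and 10.30 on the neurosphere arrays, 9.94, 9.63 and 9.92 on the cultured cell arrays and 8.00, 8.94 and 9.22 on the tissue arrays. Here every culture array was above every tissue array, and tissue array 1 was the lowest of all. With 1448694_at, neurospheres differed from tissue by 0.19 (interval -0.09 to 0.47, adjusted p = 0.204) and cultured cells by -0.54 (SE 0.10, adjusted p = 0.00128), which is under the fold threshold. With 1417409_at they differed by 1.40 (SE 0.27, adjusted p = 0.00157) and 1.11 (SE 0.26, adjusted p = 0.00345), and both rises passed. The direction of Jun in cultured cells against tissue thus turned with the probe set, and with the mean of both, Jun rose by 0.79 in neurospheres against tissue. The tissue arrays, on which the probe sets disagreed, were also those with the large excess of 3′ over 5′ actin signal, 3.07 on tissue array 1, 2.67 on array 2 and 2.38 on array 3, and the part of this excess was not tested. Between neurospheres and cultured cells the direction was the same for both probe sets, at 0.73 (SE 0.13, adjusted p = 0.00338) by 1448694_at, which passed, and 0.29 (adjusted p = 0.101) by 1417409_at, which did not.

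Id2, an inhibitor of helix-loop-helix factors that opposes myelin gene expression, was at 11.89, 11.55 and 11.77 on the neurosphere arrays, 10.76, 11.13 and 11.22 on the cultured cell arrays and 11.43, 11.47 and 11.66 on the tissue arrays by 1435176_a_at. The neurosphere arrays were above all cultured cell arrays and overlapped with tissue. Id2 rose by 0.70 in neurospheres against cultured cells (SE 0.14, adjusted p = 0.00543), and all 3 of its probe sets passed there. By 1453596_at the levels were 8.78 ± 0.28 in neurospheres and 6.72 ± 0.16 in cultured cells, a difference of 2.06. Against tissue the probe sets differed. Neurospheres were at 0.22 by the probe set used (interval -0.05 to 0.48, not passing), while 1422537_a_at gave a rise of 0.81 and 1453596_at one of 1.12. Cultured cells differed from tissue by -0.48 by the probe set used (SE 0.13, adjusted p = 0.00807), under the fold threshold. They fell by 0.94 by 1453596_at, and differed by 0.02 with overlapping arrays by 1422537_a_at. Without cultured cell replicate 1, the lowest of its group, the rise of Id2 over cultured cells was 0.56 and did not pass.

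Pax3, a neural crest factor that keeps Schwann cells from myelinating, was at 4.65, 4.97 and 5.09 on the neurosphere arrays, 4.78, 4.77 and 5.03 on the cultured cell arrays and 5.82, 6.09 and 5.65 on the tissue arrays. All culture arrays were under the floor and all tissue arrays slightly above it. It fell in neurospheres (-0.95, SE 0.15, adjusted p = 0.000459) and in cultured cells (-0.99, SE 0.13, adjusted p = 7.44e-05), and a level under the floor leaves the true size of these falls unmeasured. Its other probe sets were under the floor in every group.

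Tfap2a, which with Foxd3 specifies the neural crest, was at 6.11, 6.63 and 6.41 on the neurosphere arrays, 5.93, 5.95 and 6.18 on the cultured cell arrays and 6.19, 6.36 and 6.21 on the tissue arrays. The groups lay within 1 log2 unit of each other, and no probe set of Tfap2a passed in any comparison. Foxd3, with 1 probe set, was at 5.66, 5.78 and 5.84 on the neurosphere arrays, 5.64, 5.42 and 5.51 on the cultured cell arrays and 5.81, 5.40 and 5.42 on the tissue arrays. Only the neurosphere arrays were all above the floor. Its difference was 0.22 for neurospheres against tissue (interval -0.07 to 0.50) and 0.24 for neurospheres against cultured cells (interval 0.02 to 0.45, adjusted p = 0.0849), neither of which passed. Over all 23 probe sets fitted singly, 3 rose, 9 fell and 11 did not pass in neurospheres against tissue, where 24.3% of all such probe sets rose and 18.8% fell. In cultured cells against tissue 1 rose, 11 fell and 11 did not pass, against 24.0% and 19.7% of all. In neurospheres against cultured cells 4 rose, 0 fell and 19 did not pass, against 8.14% and 9.39%.

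Among the culture samples, several factors were high or low on the same arrays. By the probe sets used, Sox10, Sox2 and Tfap2a were all lowest on neurosphere array 1 and highest on neurosphere array 2. All were lowest on cultured cell array 1 and highest on cultured cell array 3, Tfap2a with little between arrays 1 and 2 (5.93 and 5.95). Other probe sets of Sox10 and Tfap2a did not keep the order of the cultured cells. Sox10 read 6.72, 6.63 and 6.74 there by 1424985_a_at, and 5.61, 5.25 and 5.18, under the floor, by 1425369_a_at. Both kept the order of the neurospheres. Tfap2a read 5.47, 5.11 and 5.39 on the cultured cell arrays, near or under the floor, by 1426048_s_at. Of the 16 Schwann cell lineage markers measured, 6 had the orders of the probe sets used in both cultures (Erbb3, Cdh19, Ngfr, L1cam, Lgi4 and Kcna1). L1cam and Kcna1 are also neuronal genes. Erbb3, the neuregulin receptor of Schwann cells, was at 6.81, 7.97 and 7.40 on the neurosphere arrays, 6.88, 7.15 and 7.69 on the cultured cell arrays and 10.80, 10.59 and 10.65 on the tissue arrays. Cdh19, a cadherin of Schwann cell precursors, was at 7.65, 8.49 and 8.43 on the neurosphere arrays and 5.81, 6.99 and 7.37 on the cultured cell arrays, against 9.36, 9.38 and 9.23 on the tissue arrays. Of all genes, 3.24% had both orders. So had 2 of 8 endothelial markers (Pecam1 and Cldn5, near or under the floor in culture), and no fibroblast, macrophage or cell cycle marker. The order of the cultured cells alone was found in 9 of the 16 lineage markers and 4 of 6 bone and cartilage markers. Of all genes, 15.1% had it. None of Egr2, Jun and Id2 had both, though Id2 had that of the cultured cells, and none of the 16 myelin genes had both. These orders were chosen after the values were seen, and no test was made of them.

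**Figure D3:**
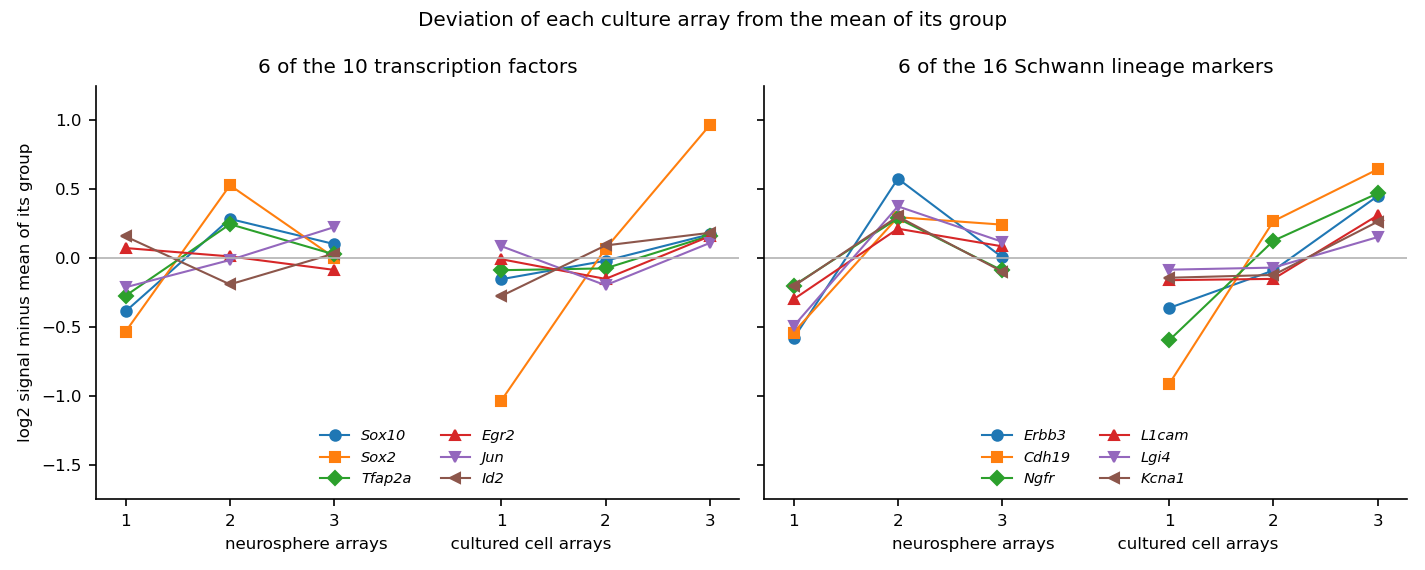
Log2 signal minus the mean of its group (vertical axis) on neurosphere arrays 1 to 3 and cultured cell arrays 1 to 3, for 6 of the 10 factors (left) and for the 6 Schwann lineage markers with the same order of arrays in both cultures (right). By the probe sets used, Sox10, Sox2 and Tfap2a follow the shape of the markers on the right, with Sox2 spanning 5.60 to 7.61 over the cultured cell arrays. Egr2 and Jun follow it in neither culture and Id2 in the cultured cells alone, and the markers shown were picked for this order. Among these markers, L1cam and Kcna1 are also neuronal genes.

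The myelin genes, which Egr2 and Sox10 activate, fell almost throughout. Of the 16 measured, 14 fell and 2 did not pass in neurospheres against tissue (median difference -3.66), and 15 fell and 1 did not pass in cultured cells against tissue (-3.56). Mbp, a main protein of compact myelin, averaged 7.67 ± 0.40 in neurospheres, 8.48 ± 0.61 in cultured cells and 13.96 ± 0.030 in tissue (SD, n = 3 each). Ugt8a, the enzyme that makes galactosylceramide, averaged 5.06 ± 0.53 in neurospheres, 7.44 ± 0.18 in cultured cells and 12.89 ± 0.065 in tissue, and it fell in neurospheres to a level above the floor on only 1 of 3 arrays. Mal, a myelin proteolipid, and Fa2h, a fatty acid hydroxylase of myelin lipids, fell in neurospheres as well (-5.99 and -5.97). In cultured cells against tissue Ncmap (-6.02), Mal (-5.56) and Mbp (-5.49) fell, and Fa2h fell to a level above the floor on 2 of 3 arrays (5.49 in cultured cells, against 11.65 in tissue). The genes that did not pass in neurospheres were Cd9, a tetraspanin (0.01), and Mpp6, a scaffold protein (0.43). Egr2 itself was among the factors that did not pass there. Mag, a gene of this list, is also 1 of the 9 oligodendrocyte markers. The means of the oligodendrocyte list were 4.96 to 5.16 in neurospheres, 4.93 to 5.02 in cultured cells and 8.81 to 8.95 in tissue. The part of oligodendrocytes in the falls of the myelin genes was not tested.

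Among partners of Egr2 and Sox10, more rose than fell. Of all genes, 21.7% rose and 21.0% fell in neurospheres against tissue, and 20.4% rose and 22.0% fell in cultured cells against tissue. Of 17 cofactors and other activators of myelination, 8 rose, 2 fell and 7 did not pass in neurospheres against tissue (median 0.51), and 11 rose, 1 fell and 5 did not pass in cultured cells against tissue (median 0.80). Wwtr1 (TAZ), a coactivator of TEAD factors, averaged 12.53 ± 0.12 in neurospheres, 11.71 ± 0.065 in cultured cells and 9.94 ± 0.11 in tissue. Nfatc4 rose by 1.59 in neurospheres and by 1.79 in cultured cells, and Zeb2, a repressor of the inhibitors of myelination, by 1.10 and 1.20. Tead1 rose by 1.71 in cultured cells and was lower in neurospheres than in cultured cells (-1.49). Rxrg, a retinoid receptor, went against the list and averaged 5.62 in neurospheres, 5.66 in cultured cells and 7.12 in tissue, a fall in both cultures to levels next to the floor. In neurospheres Ep400, a chromatin remodeller, fell as well (-0.84). Of the corepressors of EGR proteins, Nab2 rose by 1.08 in neurospheres against tissue, and Nab1 differed by 0.51, under the threshold. These are signals of whole samples, and which cells gave the rises of this list was not tested.

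**Figure D4:**
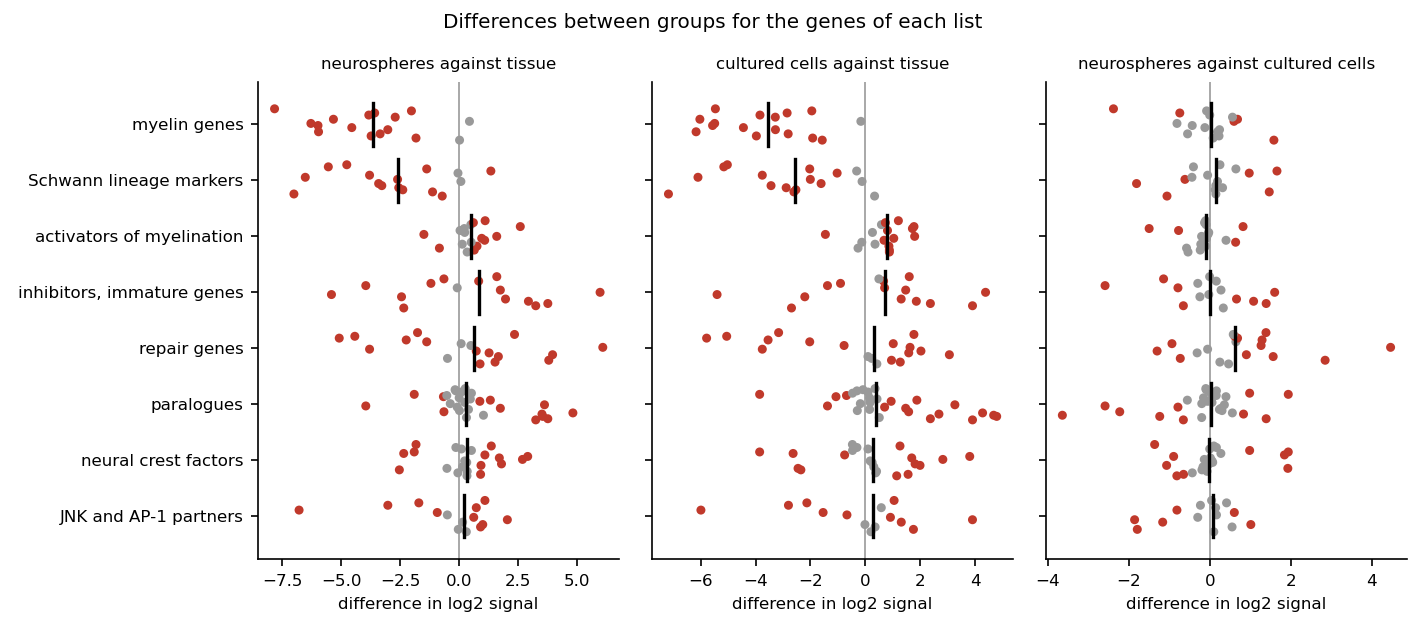
Difference in log2 signal (horizontal axis) for every measured gene of 8 lists, in panels for neurospheres minus tissue, cultured cells minus tissue and neurospheres minus cultured cells (points, red where the gene passed), with the median of each list as a black line. The myelin and Schwann lineage lists lie far below 0 in both comparisons with tissue, with medians of -3.66 and -2.59 in neurospheres, and near 0 between the cultures.

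Schwann cell lineage markers fell with Sox10. In neurospheres against tissue 13 of 16 fell, 1 rose and 2 did not pass (median -2.59), and in cultured cells against tissue 13 fell and 3 did not pass (median -2.57). S100b, a calcium-binding protein of mature Schwann cells, averaged 7.32 ± 0.081 in neurospheres, 7.72 ± 0.28 in cultured cells and 12.87 ± 0.044 in tissue. Kcna1, a juxtaparanodal potassium channel and also a neuronal gene, fell (-6.53 in neurospheres and -6.09 in cultured cells). Art3 fell to levels under the floor, 4.85 in neurospheres and 4.70 in cultured cells, against 11.87 in tissue. Sostdc1 fell by 4.77 in neurospheres, and in cultured cells to a level above the floor on 1 of 3 arrays (5.59 in cultured cells, against 10.61 in tissue). Matn2, a matrix protein, went the other way and rose by 1.34 in neurospheres. Markers of other cell types that express Sox10 or Sox2 moved in the same direction. Of 9 oligodendrocyte markers, Sox10 included, 8 fell in neurospheres and 8 in cultured cells, with list means of 4.96 to 5.16 in neurospheres, 4.93 to 5.02 in cultured cells and 8.81 to 8.95 in tissue. Mog, Mobp, Ermn, Olig1, Olig2 and Mag were not above the floor in neurospheres. Of 9 astrocyte markers, Sox2 included, 8 fell in neurospheres and 9 in cultured cells, with list means of 6.32 to 6.55, 6.12 to 6.41 and 10.01 to 10.21 in neurospheres, cultured cells and tissue. Aqp4 and Slc1a2 were not above the floor in neurospheres, and Gjb6 was under it on neurosphere array 1 alone. Of 13 cochlear epithelial markers, Sox2 included, 9 fell in each culture (means of 5.31 to 5.39, 5.17 to 5.41 and 7.99 to 8.08). Of 9 melanocyte markers, with Sox10 and Pax3 among them, 5 fell in neurospheres and 7 in cultured cells (means of 5.60 to 5.83, 5.62 to 5.71 and 7.13 to 7.24), while Tyr, Tyrp1 and Mlana were not above the floor in any group. The part of these cell types in the falls of Sox10, Sox2 and Pax3 was not tested. The neuronal markers had list means of 6.34 to 6.47 in neurospheres, 5.89 to 6.13 in cultured cells and 12.17 to 12.44 in tissue. The part of neurons in the falls of the lineage markers was not tested. Of 10 fibroblast markers, 8 rose and 1 fell in neurospheres, and 5 rose and 2 fell in cultured cells (Thy1, also a neuronal gene, at -4.05 in neurospheres and -3.16 in cultured cells, and Dcn at -1.09 in cultured cells; list means of 11.04 to 11.23, 10.98 to 11.32 and 10.10 to 10.40), and all 9 cell cycle genes rose in both.

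The other inhibitors of myelination and genes of immature Schwann cells split. In neurospheres against tissue 8 of 15 rose, 6 fell and 1 did not pass (median 0.82), and in cultured cells 9 rose, 5 fell and 1 did not pass (median 0.70). Hmga2, a chromatin protein of growing tissue, averaged 12.17 ± 0.18 in neurospheres, 10.57 ± 0.19 in cultured cells and 6.20 ± 0.10 in tissue. Hey2, a Notch target, was at 3.73 ± 0.20 in neurospheres and 3.75 ± 0.097 in cultured cells, under the floor, against 9.15 ± 0.27 in tissue. The relatives of Id2 did not move together. Id4 fell by 3.96 in neurospheres and fell by 1.38 in cultured cells, Id1 rose by 1.74 and 1.46, and Id3 rose in cultured cells (0.70) and differed by -0.09 in neurospheres.

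Among 28 paralogues of the 10 factors, 9 rose, 4 fell and 15 did not pass in neurospheres against tissue, and 12 rose, 4 fell and 12 did not pass in cultured cells against tissue. The rises of over 3 units belonged to the AP-1 and EGR families. Fosl2, an AP-1 partner of JUN, averaged 11.54 ± 0.21 in neurospheres, 10.98 ± 0.098 in cultured cells and 6.72 ± 0.12 in tissue. Junb averaged 9.32 ± 0.39, 8.96 ± 0.11 and 5.70 ± 0.40 in the same groups. Fos averaged 11.98 ± 0.63 in neurospheres, 13.22 ± 0.11 in cultured cells and 8.44 ± 0.19 in tissue, and was thus lower in neurospheres than in cultured cells (difference -1.23, SE 0.27, adjusted p = 0.00806), where Jun was higher. Fosb rose by 4.66 in cultured cells over a tissue level under the floor, and in neurospheres differed by 1.03 and did not pass. Egr3 rose by 3.76 in neurospheres and by 2.36 in cultured cells, and Egr1 by 3.25 and 3.89. Sox8, of the same subgroup as Sox10, was at 5.37, 6.81 and 6.89 on the neurosphere arrays, 4.55, 4.19 and 4.51 on the cultured cell arrays and 8.18, 8.17 and 8.46 on the tissue arrays. It fell in both cultures, on all cultured cell arrays to a level under the floor. Pou3f3 and Pou3f4 went against Pou3f1 and Pou3f2, rising by 0.87 and 1.32 in neurospheres and by 0.93 and 1.87 in cultured cells.

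Genes of the repair Schwann cell, among them targets of Jun, also split. In neurospheres against tissue 9 of 18 rose, 6 fell and 3 did not pass (median 0.61), and in cultured cells 8 rose, 7 fell and 3 did not pass (median 0.32). Between neurospheres and cultured cells 9 rose, 3 fell and 6 did not pass (median 0.63). Among the 9, Olig1, Shh and Fgf5 were under the floor on all cultured cell arrays. Their means in neurospheres were 5.01, 5.35 and 5.38, near or under the floor. Lif, a cytokine released by repair cells, was at 12.34, 10.72 and 10.42 on the neurosphere arrays, 6.56, 6.67 and 6.85 on the cultured cell arrays and 5.05, 5.04 and 5.13 on the tissue arrays, a rise of 4.47 over cultured cells that was the largest of the list. Gap43, a growth-associated protein of axons and immature glia, averaged 9.72 ± 0.18, 8.82 ± 0.11 and 5.76 ± 0.23 in the same groups. Btc, an EGF receptor ligand, was 2.85 higher in neurospheres than in cultured cells. Olig1 and Shh, both induced in repair cells through Jun, fell in neurospheres (-5.09 and -4.43) and in cultured cells (-5.78 and -5.05), and neither was above the floor on all arrays of either culture. Olig1 is also 1 of the 9 oligodendrocyte markers, of which 8 fell in each culture, and the 10 neuronal markers had list means of 6.34 to 6.47 in neurospheres, 5.89 to 6.13 in cultured cells and 12.17 to 12.44 in tissue. The part of oligodendrocytes and neurons in the falls of this list was not tested. Schwann lineage markers had list means of 6.83 to 7.15 in neurospheres, 6.70 to 7.07 in cultured cells and 9.66 to 9.78 in tissue. Those of fibroblast markers were 11.04 to 11.23, 10.98 to 11.32 and 10.10 to 10.40. Which cells gave the rises of this list was not tested. Gdnf, a neurotrophic factor under Jun control, averaged 7.17 ± 0.35 in neurospheres, 7.48 ± 0.19 in cultured cells and 5.91 ± 0.21 in tissue, and Artn, another, averaged 5.68 ± 0.23, 5.22 ± 0.16 and 4.80 ± 0.31. Gdnf rose in both cultures and Artn in neurospheres. Jun itself differed from tissue by 0.19 in neurospheres and -0.54 in cultured cells by 1448694_at, neither of which passed, and rose by 1.40 and 1.11 by 1417409_at.

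Of 14 genes of the JUN amino-terminal kinase pathway and AP-1 partners, 6 rose, 4 fell and 4 did not pass in neurospheres against tissue, and 5 rose, 5 fell and 4 did not pass in cultured cells against tissue. Mapk10 (JNK3), the kinase isoform found mainly in neurons, averaged 5.00 ± 0.55 in neurospheres, 5.81 ± 0.23 in cultured cells and 11.80 ± 0.053 in tissue, being under the floor on all neurosphere arrays, and the scaffold Mapk8ip1 fell too (-3.03 in neurospheres and -2.80 in cultured cells). All 10 neuronal markers fell in cultured cells and 9 in neurospheres, with list means of 6.34 to 6.47 in neurospheres, 5.89 to 6.13 in cultured cells and 12.17 to 12.44 in tissue, and their part in this was not tested. Maff, a small MAF factor, rose by 2.04 in neurospheres and by 3.89 in cultured cells. Atf3, an injury-induced partner of JUN, rose by 1.75 in cultured cells and was lower in neurospheres than in cultured cells (-1.79). Of 22 other neural crest transcription factors, 8 rose in each culture, and 4 fell in neurospheres and 5 in cultured cells. Of all genes, 21.7% rose and 21.0% fell in neurospheres, and 20.4% rose and 22.0% fell in cultured cells. Snai2 and Prrx1, factors of mesenchymal crest, rose by 2.90 and 2.68 in neurospheres and by 3.79 and 2.82 in cultured cells. Fibroblast markers had list means of 11.04 to 11.23 in neurospheres, 10.98 to 11.32 in cultured cells and 10.10 to 10.40 in tissue. The part of fibroblasts in these rises was not tested. Meis1 and Sox6 fell in both cultures, to levels near the floor (5.33 and 5.92 in neurospheres and 5.52 and 5.65 in cultured cells, against 7.87 and 8.28 in tissue).

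The cultures differed from each other in fewer genes than from tissue, over all genes as in these lists. Of all genes, 9.0% rose and 8.91% fell in neurospheres against cultured cells, where 21.7% rose and 21.0% fell in neurospheres against tissue. Of the 16 myelin genes, Cd9, Ncmap and Mpp6 rose in neurospheres relative to cultured cells (1.59, 0.69 and 0.60), Ugt8a and Pmp22 fell (-2.38, with neurospheres near the floor, and -0.74) and 11 did not pass. Of the 16 Schwann lineage markers, Matn2, Cdh19 and Lgi4, a ligand secreted by Schwann cells, rose (1.66, 1.47 and 0.98), Fabp7, Adgrg6 and Itgb4 fell (-1.81, -1.05 and -0.61, Itgb4 being under the floor in neurospheres) and 10 did not pass. Among the paralogues, Fosb, Id4 and Foxd1 had the largest falls (-3.64, -2.58 and -2.22, Fosb being under the floor on 1 neurosphere array) and Sox8 rose, its level in cultured cells being under the floor, with 4 rising, 6 falling and 18 not passing. Of the 17 cofactors 2 rose and 2 fell, and of the 15 other inhibitors 4 rose and 4 fell. Of the 22 other neural crest factors 4 rose and 5 fell, and of the 14 kinase pathway genes and AP-1 partners 2 rose and 4 fell. Markers of other cells also separated the cultures in which Jun and Id2 differed. All 9 cell cycle genes fell in neurospheres relative to cultured cells (means of 8.98 to 9.41 in neurospheres, 10.77 to 10.95 in cultured cells and 5.10 to 5.34 in tissue). Of 8 smooth muscle and pericyte markers 4 fell and 1 rose (means of 7.78 to 8.14, 9.32 to 9.55 and 8.47 to 8.75), led by Acta2 (-4.93) and Tagln (-3.80). Of 6 bone and cartilage markers 4 fell and 1 rose (means of 7.39 to 7.87, 9.13 to 9.52 and 8.49 to 8.76), led by Ibsp (-3.68) and Alpl (-3.48). Their part in the differences of Jun and Id2 was not tested.

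The genes most like Sox10 over the 9 arrays, by the root mean square difference of log2 signals after each gene was centred on its own mean, were Colgalt2 (0.13), Syn3 (0.15), Homer2 (0.15), Omg (0.16) and Gpr155 (0.16), and 99 genes lay within 0.3. Colgalt2, a collagen galactosyltransferase, averaged 6.61 in neurospheres, 6.32 in cultured cells and 10.67 in tissue. For Sox2 the nearest were Ntm (0.33), Atp8a1 (0.37), Cnr1 (0.42), Tnik (0.43) and the lineage marker Erbb3 (0.44), and none lay within 0.3. Ntm, a neural adhesion molecule, was at 6.19, 7.37 and 6.74 on the neurosphere arrays, 5.96, 6.45 and 7.04 on the cultured cell arrays and 10.36, 10.33 and 10.33 on the tissue arrays. It thus had the same high and low culture arrays as Sox2, which its choice by nearness over the same arrays favoured. The profile of Egr2 had 4497 genes within 0.3, with Rita1, Hif1an, Nr1d2, Dnajc5 and Slc6a8 nearest. That of Jun had 1984 within 0.3, with Gnpda2, Tmem191c, Pcdhb21, Tcp11l2 and Tfeb nearest. Signals were centred but not scaled, so genes that change little lie near each other. The counts within 0.3 therefore depend on the size of a gene's changes.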

How the data were processed

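Total RNA of 9 samples was labelled with a 3′ kit and hybridised to Affymetrix mouse expression arrays. Signals were deposited on the log2 scale, as the authors obtained them by RMA in Affymetrix Expression Console (no version given; the labels also name MAS5), and they were used as they stood. Of 45101 probe sets, 34945 named 1 gene, 932 named several, 9160 named none and 64 were controls. Symbols were brought up to date with a RefSeq gene table (GRCm38.p6), and 162 were kept as given. The probe set with the highest mean stood for each of 18193 genes. For each comparison, lmFit and eBayes of limma 3.58.1 (R 4.3.3, 2-sided) were run on its 6 arrays, with Benjamini-Hochberg adjustment over all genes, or over all 34945 probe sets where these were fitted singly. Student's t-test, used by the study, was an alternative. The fit was tested on simulated data. The number of arrays limits the precision. Intervals are at 95%.

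The 10 genes and the lists of related genes and markers were chosen with earlier results of these data known. Lists were described by counts and medians without a set test. From each list up to 4 genes with the largest change among those that passed were named, with those that went against their list. Other names (Gdnf, Artn, Nab1, Nab2, Id1, Id3, Egr1, Pou3f3, Pou3f4, Sox8, Atf3, Fosb, Cd9 and Mpp6 where outside this rule) were chosen after their values were seen. Some genes of the lists were not analysed here. Alternatives were other scalings, probe set rules, filters, priors, tests, thresholds, the replicate block and leaving out each array.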

Additional observations from a re-analysis of the deposited data

How the results depend on the processing

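No alternative reversed the direction of a factor that had passed. The calls of Sox10, Sox2, Pou3f1 and Pax3 against tissue held under every alternative in which they were measured, except that Pax3 lost its call at the 2-fold threshold. A filter that dropped the dimmest 40% of genes left 7 of the 10 factors. Of the 5 factors called against tissue in each culture and the 2 called between the cultures, a 2-fold threshold left 3, 3 and 0, and called 4961, 4901 and 1618 of all genes in place of 7762, 7718 and 3259. Without a fold threshold 8 factors were called in cultured cells against tissue, and all genes called were 11641 there and 6367 between the cultures. Each probe set fitted alone gave 15068, 15286 and 6127 calls over all probe sets.

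Between neurospheres and cultured cells 1 factor was called in place of 2 when the probe sets of each gene were averaged, by each probe set alone and by the methods' t-test after adjustment (Jun at 0.51 in the first 2 of these, Id2 with adjusted p = 0.0554 in the last), and 1 to 3 when 1 array was left out. In cultured cells against tissue, Egr2 and Jun passed when arrays were centred on the brighter genes (-0.66 and -0.62) and without cultured cell replicate 3 (-0.66 and -0.59), and Egr2 with quantile normalization (-0.61) and with the mean of its probe sets (-0.64). Quantile normalization moved the median of all genes in cultured cells against tissue to 0.11 in place of -0.01, against which differences under that scaling are read.

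The replicate number as a block left 5, 5 and 2 factors called and 7777, 7727 and 3253 of all genes. Deviations of samples with the same number correlated at 0.069 to 0.206 between cultured cells and tissue, and those with unlike numbers at -0.173 to 0.085. Between neurospheres and cultured cells the ranges were -0.190 to 0.040 and -0.086 to 0.209. Between neurospheres and tissue they were -0.093 to -0.059 and -0.018 to 0.066. The labels do not say whether the numbers pair the samples, and correlations over 3 arrays a group cannot decide it. Signal limits Pax3 and Foxd3, and probe sets of Pou3f1 and Pou3f2 in culture, which lay near or under the floor.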
